A study of Homo sapiens with 8 samples.

Results

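The 5 genes described here, SLC29A1, DCK, CDA, DCTD and SAMHD1, code for proteins that carry deoxycytidine and its drug analogues into the cell, activate them or break them down. They were chosen by name, as the probe sets whose gene symbol in the platform annotation is one of the 5, and each has 1 probe set among the 21448 transcript probe sets of the array (17709 of them named). Gene expression was measured on 8 single-colour Affymetrix arrays of total RNA from MT-2, T cells that carry HTLV-1, the virus that causes adult T cell leukaemia, and MT-1, a line from such a leukaemia. The agents were OR21, which the study calls a DNA demethylating agent, and EPZ-6438, an inhibitor of the histone methyltransferase EZH2. MT-2 cells received 100 nM OR21, 500 nM EPZ-6438, both agents at these doses, or neither. MT-1 cells received 500 nM OR21, 2500 nM EPZ-6438, both, or neither, so that every dose in MT-1 was 5 times that in MT-2. Compounds were added at seeding and again at 48 h, cells were harvested after 96 h, and both lines grew in RPMI-1640 with fetal bovine serum. There was 1 array for each line and treatment, and each line is 1 established cell line, so no difference within a line has a replicate error.

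Nucleosides are polar and cross the membrane through carriers, of which SLC29A1 (ENT1) is the widely expressed equilibrative one. Inside the cell, deoxycytidine kinase (DCK) adds the first phosphate, the step that traps a deoxycytidine analogue and that is commonly lost in cells resistant to cytarabine or decitabine. Cytidine deaminase (CDA) converts the nucleoside, and dCMP deaminase (DCTD) the monophosphate, to the uracil form. SAMHD1 splits deoxynucleoside triphosphates back to nucleosides, lowers the level of active cytarabine in leukaemia cells, and restricts retroviruses in resting cells. Which of these proteins handle OR21 is not stated in the labels.

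All levels and differences below are on the log2 scale of the deposited RMA values, and a level of 1 probe set is never set against that of another. Background was set per array from 612 negative controls, at their 95th percentile (7.19 to 7.80), and 8126 to 9718 probe sets per array lay above it. Pearson's r across probe sets was 0.955 to 0.994 between arrays within a line and 0.871 to 0.885 between lines. Of 13 T cell markers with a probe set, 6 stood above background on every MT-2 array and 7 on every MT-1 array, while CD3D, CD3E, CD3G, CD2 and LCK did so on none. Of the markers of other blood cells, none of the 5 myeloid, 2 NK or 2 erythroid genes stood above background. Of the 4 B cell markers, CD79A did so on 3 MT-2 and 2 MT-1 arrays and CD79B on 2 MT-2 arrays and 1 MT-1 array, at levels of 6.69 to 7.83. Their part in the values below was not tested.

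DNA demethylating agents act at CpG sites, so the sequences before the gene starts are shown first. All 5 genes matched RefSeq promoters of GRCh38.p14, with 2 annotated starts for SLC29A1 and for DCTD. In the 250 bases before each start, DCK held 31 CpG sites, SLC29A1 19 and 27, DCTD 23 and 40 in windows that overlap in part, SAMHD1 14 and CDA 5, where the median of all 35116 RefSeq promoters was 11. CDA was the one member below that median, and 34.3% of all promoters held fewer sites than it did, against 55.2% for SAMHD1 and 89.1% for DCK. The sequences of CDA, SAMHD1 and the first start of SLC29A1, the gene with the fewest sites and the 2 genes with the largest differences under both agents in MT-1, are printed 5′ to 3′ on the strand of the gene, with each CpG in capitals.
CDA (chr1:20588847-20589096, plus strand): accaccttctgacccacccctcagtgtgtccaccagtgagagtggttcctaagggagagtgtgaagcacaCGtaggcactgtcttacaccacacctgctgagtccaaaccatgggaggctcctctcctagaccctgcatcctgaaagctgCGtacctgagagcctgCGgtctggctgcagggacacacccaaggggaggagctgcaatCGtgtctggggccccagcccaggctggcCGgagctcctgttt
SAMHD1 (chr20:36951709-36951958, minus strand): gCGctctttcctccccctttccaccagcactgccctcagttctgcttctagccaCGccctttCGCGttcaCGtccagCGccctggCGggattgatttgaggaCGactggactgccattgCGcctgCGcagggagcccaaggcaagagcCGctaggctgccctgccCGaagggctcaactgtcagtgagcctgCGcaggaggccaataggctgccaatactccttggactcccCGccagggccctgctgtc
SLC29A1, first start (chr6:44219365-44219614, plus strand): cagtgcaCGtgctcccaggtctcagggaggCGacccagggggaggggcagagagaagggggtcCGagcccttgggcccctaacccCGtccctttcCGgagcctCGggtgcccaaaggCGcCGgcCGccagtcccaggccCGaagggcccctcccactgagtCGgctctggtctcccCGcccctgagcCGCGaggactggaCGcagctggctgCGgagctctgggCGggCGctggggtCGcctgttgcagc
Read on both strands, the letters CCAAT occurred 2 times before SAMHD1 and before none of the other starts (32.0% of all promoters held them). TGCGCA occurred 2 times before SAMHD1 and before no other member (6.89% of all promoters), and GGGCGG before every start of SLC29A1, DCK and DCTD but not before SAMHD1 or CDA (42.6% of all promoters). These are letter counts. Methylation of the sites was not analysed here.

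**Figure D1:**
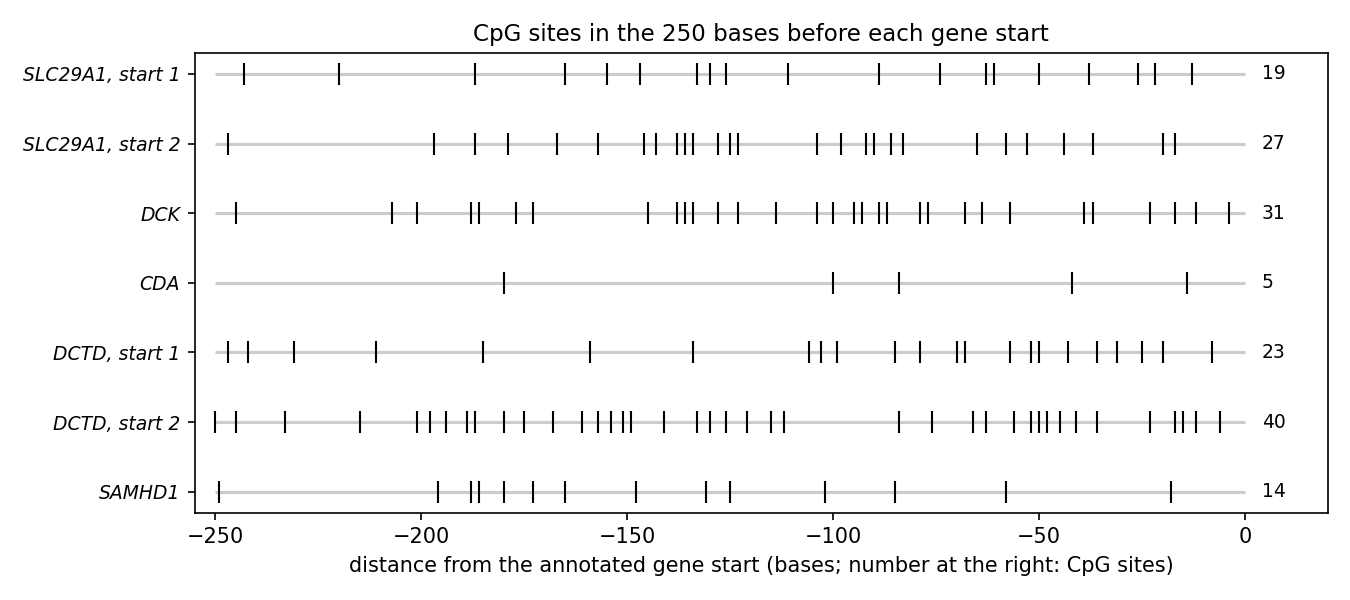
CpG sites (vertical ticks) in the 250 bases before each annotated start of the 5 genes, by distance from the start in bases, with the number of sites at the right. CDA has 5 sites, and the second start of DCTD has 40.

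The gene for the uptake carrier, SLC29A1 (Entrez gene 2030, chromosome 6, 44219615 to 44234142), differed between the untreated lines. It stood at 10.33 in untreated MT-2 cells, against 12.04 in untreated MT-1 cells, a difference of -1.72, or 3.28-fold lower signal in MT-2. In this pair 12.6% of the probe sets kept by the filter differed as far downwards or farther. Fewer cells with the transcript and less of it per cell cannot be told apart in such bulk RNA. Under OR21 it stood at 10.45 in MT-2 and 11.68 in MT-1, under EPZ-6438 at 10.21 in MT-2 and 12.05 in MT-1, and under both agents at 10.66 in MT-2 and 10.66 in MT-1. The 4 MT-2 arrays thus lay between 10.21 and 10.66, and 3 of the MT-1 arrays lay at 11.68 or more. The MT-1 array with both agents lay level with the highest MT-2 array.

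Against the control of the same line, SLC29A1 in MT-2 differed by 0.12 with OR21, -0.11 with EPZ-6438 and 0.33 with both. In MT-1 it differed by -0.36 with OR21, 0.01 with EPZ-6438 and -1.39 with both, the last being 2.61-fold lower. In MT-1 under both agents 3.97% of the 12942 probe sets kept by the filter differed as far downwards or farther, and the median of all was -0.05. The EPZ-6438 value in MT-1 had no settled sign (-0.06 to 0.09 over the scalings). The signs under both agents were opposite in the lines, and limma over both lines gave -0.53 (SE 0.45, 95% interval -1.63 to 0.57, adjusted p = 0.529) for the combination, with means of 10.66 on the arrays with both agents and 11.19 on the control arrays. Without the MT-1 array with both agents that estimate was 0.27. A fit with terms for line by agent, added after the values were seen, tested the difference between the lines in their OR21 response (treatments with OR21 minus those without). It gave means of 0.28 in MT-2 and -0.88 in MT-1, a difference of 1.16 (SE 0.38, 95% interval 0.25 to 2.07, adjusted p = 0.142), which did not pass. That test called 0 of the 4 genes, where 4.1% of all probe sets were called, 1.41% higher and 2.68% lower. The same test of the EPZ-6438 responses called none of the 4 and 0 (0.0%) of all, while 1193 (9.22%) had an unadjusted p under 0.05. Doses differed between the lines, so line and dose cannot be told apart in these tests.

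**Figure D2:**
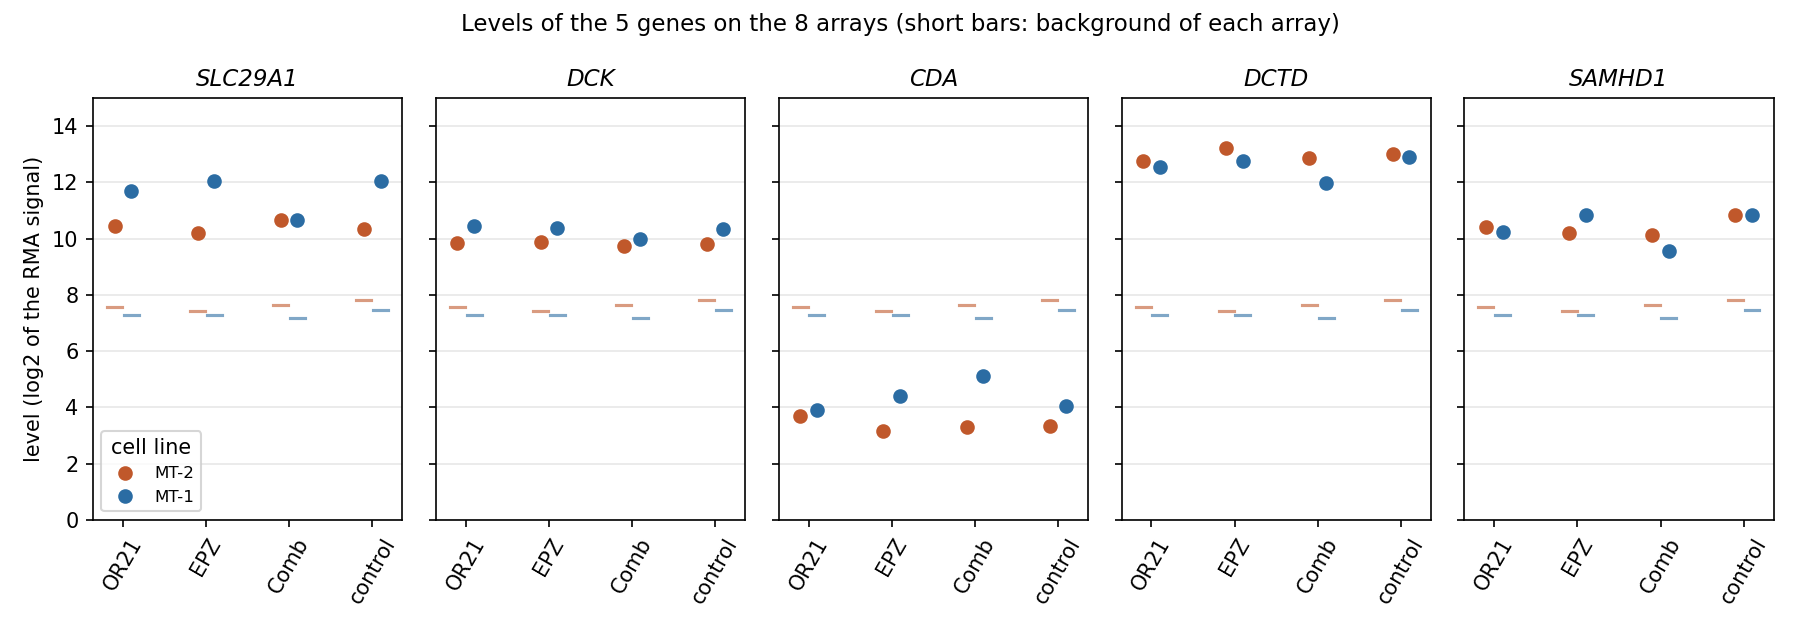
Levels (log2) of each gene on the 8 arrays, by treatment, with MT-2 and MT-1 side by side, and the background of each array as a short bar. CDA lies below background on all 8 arrays, and SLC29A1 in MT-1 lies at 10.66 with both agents, against 12.04 untreated.

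DCK (Entrez gene 1633, chromosome 4, 70993649 to 71030914), the activating kinase, held the narrowest range of the 5 genes, 0.69 over all 8 arrays. It stood at 9.83 with OR21, 9.89 with EPZ-6438 and 9.75 with both in MT-2 cells, against 9.81 in untreated MT-2 cells. In MT-1 cells it stood at 10.45 with OR21, 10.37 with EPZ-6438 and 10.00 with both, against 10.33 untreated. As deposited, all MT-2 arrays lay below all MT-1 arrays, but how many of all probe sets did so was not counted. With both agents MT-2 minus MT-1 was -0.25, where the median of all probe sets kept was -0.24. In the untreated pair 42.2% of the probe sets kept differed as far downwards as DCK or farther. Over the scalings the untreated difference of DCK between the lines ran from -0.62 to 0.02. Differences from the control were 0.02, 0.08 and -0.06 in MT-2 and 0.12, 0.04 and -0.32 in MT-1, in the order OR21, EPZ-6438 and both. The sign of the OR21 differences depended on the scaling, with values between -0.03 and 0.14 in MT-2 and between -0.04 and 0.26 in MT-1. So did that of EPZ-6438 in MT-1 (-0.03 to 0.10) and of both agents in MT-2 (-0.12 to 0.00). Over both lines limma gave 0.07 for OR21 (95% interval -0.41 to 0.54, adjusted p = 0.925), 0.06 for EPZ-6438 (-0.42 to 0.54, adjusted p = 1.0) and -0.19 for the combination (-0.67 to 0.28, adjusted p = 0.605).

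The gene for the nucleoside deaminase was not measured above background. CDA (Entrez gene 978, chromosome 1, 20589097 to 20618903) stood at 3.70 with OR21, 3.16 with EPZ-6438 and 3.30 with both in MT-2, against 3.32 untreated, and at 3.90, 4.39 and 5.12 in MT-1, against 4.06 untreated. All 8 values lay below the background of their arrays, so no difference is given, and CDA did not pass the filter on dim probe sets. The other 4 genes passed and stood above background on all 8 arrays. The level of 5.12 in MT-1 with both agents was the highest of the 8 and still below that array's background of 7.19.

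DCTD (Entrez gene 1635, chromosome 4, 182890091 to 182917611) codes for the deaminase of the monophosphate. It stood at 12.75 with OR21, 13.22 with EPZ-6438 and 12.88 with both in MT-2, against 13.01 untreated. In MT-1 it stood at 12.56 with OR21, 12.77 with EPZ-6438 and 11.99 with both, against 12.91 untreated. The lowest array was MT-1 with both agents, at 1.89-fold lower signal than its control. Differences from the control were -0.27, 0.21 and -0.13 in MT-2 and -0.35, -0.14 and -0.92 in MT-1, in the same order of treatments. Median centring of the arrays took the last of these to -1.15, where the median of all probe sets moved to -0.29. Across lines limma gave -0.31 for OR21 (95% interval -0.92 to 0.30, adjusted p = 0.703), 0.03 for EPZ-6438 (-0.58 to 0.64, adjusted p = 1.0) and -0.53 for the combination (-1.14 to 0.08, adjusted p = 0.304), none of which passed. With 1 array left out the combination estimate ran from -0.85 (without the MT-2 array with both agents) to -0.20 (without the MT-1 one), and the OR21 estimate from -0.51 (without the MT-2 control) to -0.11 (without the MT-1 control).

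SAMHD1 (Entrez gene 25939, chromosome 20, 36889773 to 36951708), which hydrolyses deoxynucleoside triphosphates, had lower values in both lines under OR21 and under both agents, as DCTD did, by more than DCTD in each of these 4 comparisons. It stood at 10.40 with OR21, 10.19 with EPZ-6438 and 10.14 with both in MT-2, against 10.85 untreated. In MT-1 it stood at 10.23 with OR21, 10.85 with EPZ-6438 and 9.57 with both, against 10.85 untreated. The untreated array was the highest of its line in MT-2, and in MT-1 it was level with the EPZ-6438 array. Differences from the control were -0.45 with OR21, -0.67 with EPZ-6438 and -0.71 with both in MT-2, and -0.62, 0.00 and -1.28 in MT-1. The value of -1.28 is a 2.42-fold lower signal, and 4.95% of the probe sets kept differed as far downwards in that comparison. In MT-2 the share as far down as SAMHD1 was 16.9% under OR21, 2.59% under EPZ-6438 and 6.96% under both agents. Under OR21 in MT-1 it was 12.9%.

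Over both lines, SAMHD1 averaged 9.86 on the arrays with both agents and 10.85 on the control arrays, a difference of -0.99 (SE 0.31, 95% interval -1.75 to -0.24). The estimate was -1.36 without the MT-2 array with both agents and -0.63 without the MT-1 one. SAMHD1 was lower in 2 of 2 lines, but how many of all probe sets were lower in both was not counted. For SAMHD1 limma's unadjusted p was 0.018, where 19.2% of all probe sets had one under 0.05. Its adjusted p was 0.201 (at most 0.226 over the other scalings), so it did not pass. OR21 alone gave -0.54 (95% interval -1.29 to 0.22, adjusted p = 0.622) and EPZ-6438 alone -0.33 (-1.09 to 0.43, adjusted p = 1.0). The EPZ-6438 estimate was 0.12 when the MT-2 array with EPZ-6438 was left out, so its sign rested on that array. The intervals of the single agents hold both no difference and a difference as large as that of the combination.

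**Figure D3:**
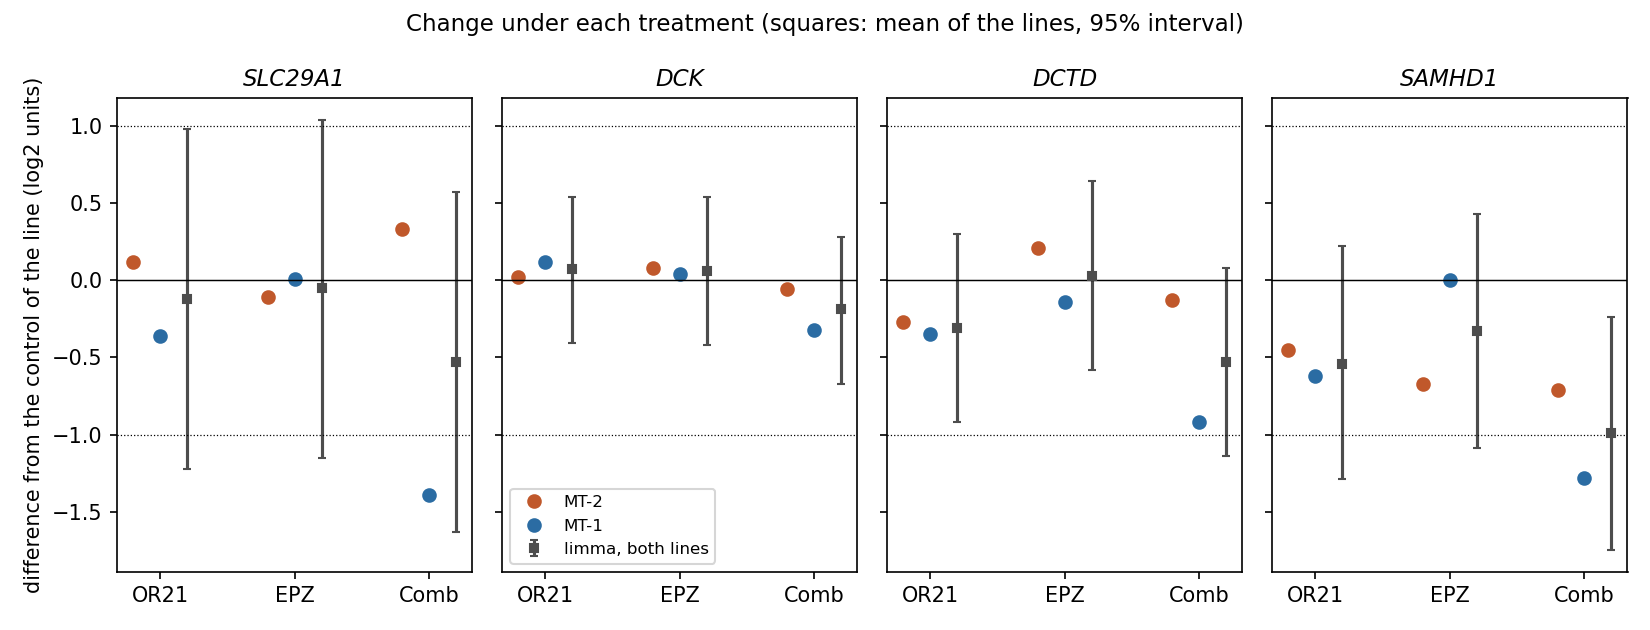
Difference from the control of the same line (log2 units) for the 4 genes above background, by treatment, with a point for MT-2, a point for MT-1 and the limma mean of the lines with its 95% interval. SAMHD1 under both agents is the one interval that lies wholly below 0, at -1.75 to -0.24 (limma adjusted p = 0.201). In that comparison 19.2% of all probe sets had an unadjusted p under 0.05. SLC29A1 has the widest gap between the lines, 0.33 in MT-2 against -1.39 in MT-1.

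Counted by size, 2 of the 4 genes above background, SLC29A1 and SAMHD1, were lower by 1 log2 unit or more with both agents in MT-1, where 9.64% of the probe sets kept were. None was higher by as much there (11.2% of all). The probe sets kept include some below background. With levels under background set to it, 1034 of them were lower and 822 higher in that comparison, against 1248 and 1451 as deposited. With OR21 alone in MT-1 0 of 4 were past this size (3.75% of all were lower and 5.35% higher), as with EPZ-6438 alone (0.294% lower and 1.03% higher). In MT-2 0 of 4 were past it under OR21 (1.69% lower, 2.36% higher), EPZ-6438 (0.355% lower, 0.896% higher) or both agents (1.95% lower, 5.05% higher). The median of the 4 genes under both agents was -0.10 in MT-2 and -1.10 in MT-1, where the medians of all probe sets kept were -0.02 and -0.05. The comparisons within a line share its control array. Across lines limma called 0 of the 4 genes and 0 of all 12942 probe sets (0.0%) for OR21, EPZ-6438 or the combination, with 1079 (8.34%), 285 (2.2%) and 2489 (19.2%) at an unadjusted p under 0.05. For the combination the number called was 740 without the MT-2 array with both agents and 10 with a variance trend, none of them among the 4 genes.

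Whether the combination went beyond its parts was read from the excess, the difference under both agents minus the sum of those under the single agents. In MT-2 the excess was 0.32 for SLC29A1, -0.15 for DCK, -0.07 for DCTD and 0.41 for SAMHD1. In MT-1 it was -1.03 for SLC29A1, where OR21 and EPZ-6438 alone summed to -0.36 and the combination gave -1.39. For SAMHD1 in MT-1 it was -0.66, for DCK -0.48 and for DCTD -0.43. All 4 values were below 0 in MT-1, where the median of all probe sets kept was 0.02 and the share below 0 was not counted. Of the probe sets kept, 1.78% had an excess as low as that of SLC29A1, 7.26% as low as that of SAMHD1, 13.6% as DCK and 16.1% as DCTD. Each of the 4 rests on the same 4 arrays, so they are not separate observations. Across lines limma called none (SLC29A1 -0.35, 95% interval -1.91 to 1.20, adjusted p = 1.0), with 0 of all probe sets called (0.0%) and 223 (1.72%) at an unadjusted p under 0.05. The sign of the mean excess of SLC29A1, SAMHD1 and DCTD turned without the MT-1 array with both agents (0.44, 0.24 and 0.07).

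Between the lines, limma set the 4 MT-2 arrays against the 4 MT-1 arrays, matched by treatment but not by dose. SLC29A1 averaged 10.41 ± 0.19 in MT-2 and 11.61 ± 0.66 in MT-1 (SD, n = 4 arrays each), a difference of -1.20 (SE 0.32, 95% interval -1.97 to -0.42, adjusted p = 0.0172). DCK averaged 9.82 ± 0.06 in MT-2 and 10.29 ± 0.19 in MT-1 (SD, n = 4 arrays each), a difference of -0.46 (SE 0.14, 95% interval -0.80 to -0.13, adjusted p = 0.0263). DCTD differed by 0.41 (95% interval -0.02 to 0.84, adjusted p = 0.085) and SAMHD1 by 0.02 (-0.52 to 0.55, adjusted p = 0.949), and neither passed. So 2 of the 4 genes were called lower in MT-2, where 40.7% of all probe sets were called lower and 22.7% higher (63.4% either way, and 67.8% at an unadjusted p under 0.05), so their share is near the background. The median of all probe sets in this comparison was -0.30 as deposited and 0.00 after cyclic loess. After cyclic loess SLC29A1 differed by -0.69 (adjusted p = 0.0943, and 0.0669 after quantile normalization) and DCK by 0.02 (adjusted p = 0.892), while DCTD was called at 0.84 (adjusted p = 0.00575). The calls also depended on single arrays. Without the control, OR21 or EPZ-6438 array of either line, SLC29A1 had adjusted p = 0.0626 to 0.0693 and DCK 0.0796 to 0.107, and without either array with both agents SLC29A1 differed by -1.59. In this model, leaving out an array also takes its partner in the other line out of the difference. The arrays of a line come from that line alone, so the p-values speak of these arrays of these lines.

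In the untreated pair, where no dose entered, MT-2 minus MT-1 was -1.72 for SLC29A1, -0.51 for DCK, 0.11 for DCTD and 0.00 for SAMHD1, around a median of -0.29 over all probe sets kept. Of the 4 genes, SLC29A1 alone was past 1 log2 unit, in a comparison where 27.2% of all probe sets were lower in MT-2 by as much and 15.7% higher. Over the alternative scalings the difference of SLC29A1 ran from -1.83 to -1.16, whereas that of DCK ran from -0.62 to 0.02, of DCTD from -0.01 to 0.58 and of SAMHD1 from -0.11 to 0.55. MT-1, the line with the higher SLC29A1 signal, was also the one given the higher doses (100 nM OR21 in MT-2 and 500 nM in MT-1). No dose was given to both lines, so no response was compared at a matched dose.

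Among 9572 named probe sets above background on at least 1 array, those with the most similar course over the 8 arrays were picked by Pearson's r. For SLC29A1 they were MTHFS, a folate enzyme, and HK2, the glycolytic hexokinase (r = 0.984 each). Both lay below background on all 4 MT-2 arrays, and MTHFS also in MT-1 with both agents (7.05), so their likeness rests on the MT-1 arrays and on the gap between lines. HK2 stood at 7.20 with both agents in MT-2, against 7.04 untreated, and at 7.40 with both agents in MT-1, against 9.74 untreated. For DCK they were TTC33 (r = 0.992) and SELENOK, a selenoprotein of the endoplasmic reticulum (r = 0.985). For DCTD they were SUCLA2, a subunit of succinyl-CoA ligase (r = 0.971), and GTF3A, the transcription factor of 5S rRNA genes (r = 0.969). For SAMHD1 they were RANGAP1, which activates the GTPase Ran (r = 0.963), and SKP2, the ubiquitin ligase subunit that marks p27 (r = 0.958). SKP2 stood at 11.09 with both agents in MT-2, against 11.48 untreated, and at 10.71 with both agents in MT-1, against 11.44 untreated. The 8 points fall into the lines and share arrays and scaling, and the pairs are the highest of all those compared, so the values are descriptive.

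The wider pathway was described through lists that hold 71 further genes, of which 60 had a probe set and 46 passed the filter. Under both agents in MT-1, 9 of the 46 were lower by 1 or more (9.64% of all probe sets kept) and 2 higher (11.2%), with a median of -0.53 against -0.05 over all. In MT-2, 1 was lower (1.95%) and 1 higher (5.05%), with a median of -0.11 against -0.02. The higher one, the carrier SLC29A3 (ENT3), named after its values were seen, lay below background on both arrays. The other equilibrative carrier, SLC29A2 (ENT2), stood at 8.0 with both agents in MT-1, against 10.52 untreated, a difference of -2.52, and at 8.26 with OR21 alone (-2.26, reached by 0.0773% of probe sets). In MT-2 it lay below background on all but the EPZ-6438 array. The efflux pump ABCG2 differed by 0.47 in MT-2 and -1.48 in MT-1 under both agents. Of the hydrolases, DCTPP1, which clears dCTP and modified deoxynucleotides, differed by -1.76 and the nucleotidase NT5C by -1.38 in MT-1 under both agents. In MT-2, ENTPD1 (CD39) differed by -1.02.

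In the list of pyrimidine synthesis and base breakdown, 4 of 8 genes were lower by 1 or more in MT-1 under both agents (9.64% of all probe sets kept). These were DHODH (-1.58), UMPS (-1.54) and CAD (-1.35), which make UMP, and the purine nucleoside phosphorylase PNP (-1.35). CTPS2, which makes CTP, stood at 7.32 with both agents, just above background, against 6.07 untreated, below background. Its difference in MT-1 was therefore not measured. In the added limma fit the OR21 response of CTPS2 in MT-2 minus that in MT-1 was called at -1.37 (adjusted p = 0.0385). It was the 1 of the 46 called lower there (2.68% of all), and the other MT-1 arrays lay below background. Of the kinases tested beside DCK, NME4 alone was past this size (-1.28). RRM2B, the p53-controlled subunit of ribonucleotide reductase, went the other way, with 12.80 under OR21 and 12.69 under both agents in MT-2, against 11.78 untreated, and 9.90 and 10.80 in MT-1, against 9.29 untreated. Over both lines its difference under the combination was 1.22 (95% interval 0.50 to 1.94), not called by limma (adjusted p = 0.174). With OR21 alone in MT-1, 5 of the 46 were lower by 1 log2 unit or more (3.75% of all probe sets kept) and 1 higher (5.35%). The lower ones were SLC29A2, NME4 (-1.10), NT5C (-1.17), DHODH (-1.11) and NME6. The higher one, CTPS2, lay below background on both arrays. NME6 lay under background there, which bounds its difference at -0.67 or lower. Across lines 0 of the 46 were called for OR21, EPZ-6438 or the combination, where 0.0% of all probe sets were.

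**Figure D4:**
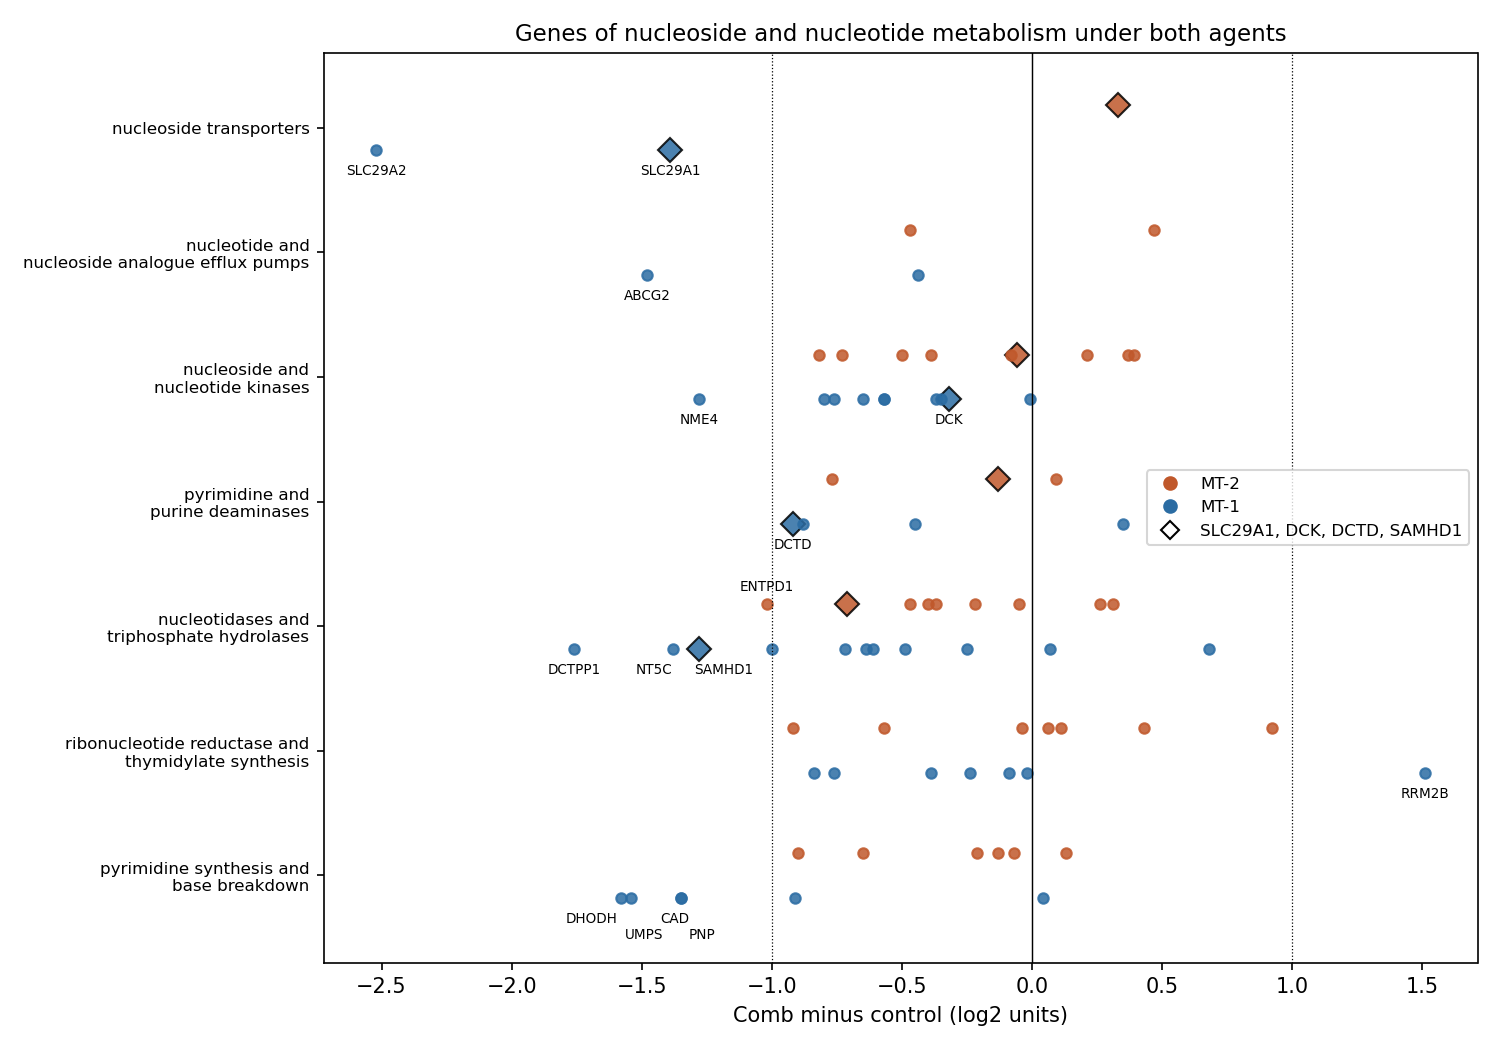
Difference between both agents and control (log2 units) in MT-2 and MT-1 for SLC29A1, DCK, DCTD and SAMHD1 (diamonds) and for the other genes of each list that lay above background on both arrays (circles, 33 in MT-2 and 38 in MT-1). Genes past 1 log2 unit are named, from SLC29A2 at -2.52 to RRM2B at 1.51, both in MT-1.

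Between the lines, 29 of the 46 were called lower in MT-2 (40.7% of all probe sets) and 5 higher (22.7%), with a median of -0.69 against -0.30 over all. After cyclic loess 22 were called lower and 10 higher, where 30.2% and 30.5% of all were. The lower ones included RRM2 (-2.30) and TYMS (-1.38), which supply deoxynucleotides, the thymidine kinase TK1 (-1.23), the next kinase after DCK, CMPK1 (-0.93), and ADA, the adenosine deaminase, which stood below background on every MT-2 array and differed by -2.79 or lower in the untreated pair. The 5 called higher in MT-2 included RRM2B (2.54), the nucleotide exporter ABCC4 (2.84) and CTPS2 (at least 3.33 in the untreated pair). The others were MTHFD2 (0.71) and SLC29A3 (0.56), which lay below background on every array. Levels of CTPS2 in MT-1 lay below background on all arrays but that with both agents.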

How the data were processed

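Total RNA of 8 cultures, 1 per line and treatment, was hybridised to single-colour Affymetrix arrays. The deposited values are log2 expression levels made with RMA by the authors, per the submitters' processing notes. The log base is that of RMA and is not written in the table, and the sources used here give no RMA version, array build, annotation release or rescaling. Values reached 18.77, above what a 16-bit scanner gives. RMA usually normalizes arrays together, yet the array medians ran from 6.44 to 6.68. Log2 values were used as deposited. No column of another sample was present.

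Groups were taken from the labels. Of 24351 entries, 2903 control entries were left out, and probe sets were kept if the highest of their 8 values reached the median of all, 6.573 (12942 of 21448 kept). Background was the 95th percentile of 612 negative controls per array. Within a line, differences of 1 log2 unit or more are counted without a test. Across lines, limma 3.58.1 (R 4.3.3) was fitted with line and treatment as additive terms (3 residual degrees of freedom), with Benjamini-Hochberg adjustment over all kept probe sets and a threshold of 0.05. The lines act there as the replicates, at different doses. A fit with line-by-agent terms (2 residual degrees of freedom) was added after seeing the data. The fit with line and treatment was tested on simulated data for OR21 alone, with the same change in both lines. Responses that differ between the lines, the other comparisons and the other fits were not tested in this way. Alternatives were other scalings, filters, a variance trend, an additive model of the agents, levels under background set to it, a fold of 0.5 and each array left out. The precision is limited by the number of arrays. The 5 genes, the pathway lists and the markers were chosen with earlier results of these data known. Further genes were named if on a pathway list and called by limma or past 1 log2 unit with the brighter array above background, or if among the 2 most similar in course to a gene of the 5. Promoter sequences are from RefSeq, GRCh38.p14.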

Additional observations from a re-analysis of the deposited data

Results flagged for a closer look

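For 4 pairs of values of the 4 genes above background, the deposited levels gave the lines opposite signs under the same treatment. How many of all probe sets had opposite signs was not counted, and the medians of all probe sets kept lay between -0.06 and -0.02 in these comparisons. Each line has 1 array per treatment and the doses differed, so these differences were not tested pair by pair. SLC29A1 under both agents differed from its control by 0.33 in MT-2 and -1.39 in MT-1, a gap of 1.71. SLC29A1 under OR21 differed by 0.12 in MT-2 and -0.36 in MT-1, a gap of 0.48. SLC29A1 under EPZ-6438 differed by -0.11 in MT-2 and 0.01 in MT-1, a gap of -0.12, and the sign in MT-1 depended on the scaling (-0.06 to 0.09). DCTD under EPZ-6438 differed by 0.21 in MT-2 and -0.14 in MT-1, a gap of 0.35. The added limma fit with line-by-agent terms measured another quantity. Its response sets the treatments with an agent against those without, so the arrays with both agents enter it. For the OR21 response of SLC29A1 the difference between the lines was 1.16 (adjusted p = 0.142). For the EPZ-6438 response it was 0.55 for SLC29A1 (adjusted p = 0.664), opposite in sign to the gap of -0.12. For the EPZ-6438 response of DCTD it was 0.53 (adjusted p = 0.594). None of these is a test of the 4 gaps.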

How the results depend on the processing

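No paired analysis was possible because the labels carry no replicate numbers to use as a block. The line term of the limma fit itself compares treatments within each line. Of 112 differences of 2 arrays recomputed for the 4 genes, 111 kept their side of 1 log2 unit, the exception being DCTD in MT-1 under both agents (-1.15 with arrays centred on their median). Of 308 limma values of the 4 genes, 15 lost and 2 gained a call, all in the difference between lines, and 22 changed sign; the causes were not tested. The sign changes were, for OR21, DCK at -0.04 (median centring), -0.03 (without the MT-1 OR21 array) and -0.09 (agents as additive terms), and SLC29A1 at 0.01 (quantile) and 0.22 (without the MT-1 control). For EPZ-6438 they were DCK at -0.10 and DCTD at -0.09 (additive terms), DCTD at -0.17 (without the MT-2 control), SAMHD1 at 0.12 and SLC29A1 at 0.37 (without the MT-2 EPZ-6438 array), and SLC29A1 at 0.29 (without the MT-1 control). For the combination it was SLC29A1 at 0.27 (without the MT-1 array with both agents). Between lines they were DCK at 0.02 (cyclic loess) and SAMHD1 at -0.03 (without either OR21 array) and -0.17 (without either array with both agents). For the excess they were SAMHD1 at 0.33 and SLC29A1 at 0.07 (MT-1 EPZ-6438 array left out), and SAMHD1 at 0.24, DCTD at 0.07 and SLC29A1 at 0.44 (without the MT-1 array with both agents). With 1 array left out at a time the values ran, for OR21, from -0.03 to 0.17 (DCK) and -0.47 to 0.22 (SLC29A1), and for EPZ-6438 from -0.79 to 0.12 (SAMHD1), -0.17 to 0.24 (DCTD) and -0.48 to 0.37 (SLC29A1). They ran, under the combination, from -1.33 to 0.27 for SLC29A1, -1.36 to -0.63 for SAMHD1, -0.85 to -0.20 for DCTD and -0.33 to -0.05 for DCK, from -0.17 to 0.25 for SAMHD1 between lines, and for the excess from -0.58 to 0.33 (SAMHD1), -0.57 to 0.07 (DCTD) and -1.15 to 0.44 (SLC29A1). Probe sets called for the combination numbered 0 to 740 and for the excess 0 to 7 when 1 array was left out, and 0 for OR21 and EPZ-6438, against 6711 to 8167 between lines. Agents as additive terms called 21 for OR21, and a variance trend 10 for the combination. A fold of 0.5 log2 unit counted 4208 (OR21), 1937 (EPZ-6438) and 6220 (both) probe sets in MT-1, against 1177, 171 and 2699 at 1 unit, 3200, 1817 and 4073 in MT-2, against 524, 162 and 906, and 8746 between untreated lines, against 5548. Setting levels under background to it counted 630 and 47 in MT-1 (OR21, EPZ-6438), 204, 49 and 483 in MT-2, and 3688 between untreated lines. Scaling moved the share of higher calls: median centring gave 38.1% against 58.8% (OR21) and 35.7% against 53.8% (both) in MT-1, and cyclic loess 50.7% against 36.6% between untreated lines. Over all scalings that share ran from 38.1% to 65.9% (OR21), 63.8% to 78.8% (EPZ-6438) and 35.7% to 66.2% (both) in MT-1, and from 42.6% to 66.8%, 71.1% to 77.1% and 63.1% to 77.3% in MT-2. CDA lay below background on every array, which limits it to a bound.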
